A study of Mus musculus with 69 samples.

Results

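The endoplasmic reticulum (ER) folds the proteins that a cell secretes or places in its membranes, and 38 genes of its chaperones and stress response were followed here in the pituitary, hypothalamus and ovary of female mice with an altered Zeb1 gene. The members were taken by symbol from a list and found as rows of the deposited count tables, in which they make up 38 of 55964 gene IDs. Ddit3 matched 2 gene IDs, of which the main one was used. The members fall into 6 roles: 9 luminal chaperones of the Hsp70 and Hsp90 kind with their partners, 2 lectin chaperones, 7 enzymes of disulfide bonds, 8 stress sensors and effectors, 5 genes of ER-associated degradation, and 7 genes of protein entry, signal peptide removal and glycosylation.

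All mice were females of the C57BL/6J background, taken at proestrus. WT mice carried the normal gene, Zeb1_200H mice (200H) carried 1 knock-in allele, and Zeb1_200M mice (200M) carried the knock-in on both alleles. The knock-in has point mutations in the predicted miR-200a/b sites of the Zeb1 3′ UTR, the sequences through which these microRNAs bind the Zeb1 transcript. The change is in the germ line and is therefore present in every tissue, and the mice came from lines made from separate ES cell clones, with no clone named in a library's labels. The young cohort held virgin females of 8 to 12 weeks, and the older cohort held females of 28 to 36 weeks, used in a breeding trial before. The 69 libraries fall into 18 groups of 3 or 4 mice. Young libraries were ribosomal-RNA-depleted and stranded, and older libraries were poly(A)-selected and unstranded, so cohort, age, breeding and library chemistry cannot be told apart. Total counts per library ranged from 7560888 to 13342430 in young pituitary, 3321845 to 5143128 in young hypothalamus, 6337205 to 12896366 in young ovary, 4527753 to 12957678 in older pituitary, 10189605 to 13917738 in older hypothalamus and 7985206 to 14655095 in older ovary.

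In a secretory cell, new proteins enter the ER through the Sec61 channel, lose their signal peptide, receive sugars and fold with the help of the Hsp70 chaperone BiP (Hspa5), the Hsp90 chaperone Grp94 (Hsp90b1), the lectins calnexin and calreticulin and the protein disulfide isomerases. Unfolded protein is sensed by IRE1 (Ern1), PERK (Eif2ak3) and ATF6, which act through the transcription factors XBP1, ATF4 and ATF6 itself to raise chaperones, folding enzymes and degradation genes. The anterior pituitary secretes peptide hormones in bulk, prolactin and growth hormone above all, and such endocrine cells are known for an extensive ER. Counts per gene do not separate spliced from unspliced Xbp1, and they say nothing of the phosphorylation of IRE1 or PERK.

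The best-known element of this response in DNA is the ER stress element, ERSE, which is CCAAT, 9 bases of any kind and CCACG. A shorter form, ERSE-II, is ATTGG, 1 base of any kind and CCACG. Promoter windows of 300 bases, from 250 bases before to 50 bases after the start, were taken from RefSeq on GRCm38.p6 and matched 33 of the 38 members, all but Manf, Atf6, Ostc, Sec61a1 and Hyou1, with Ero1lb listed there as Ero1b. The elements below were found in 11 of the 33 member windows. Each is written 5′ to 3′ on its own strand with the fixed letters in capitals.
Hspa5: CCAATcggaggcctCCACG, chr2:34772025-34772043, plus strand.
Hsp90b1: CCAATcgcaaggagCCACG, chr10:86705638-86705656, minus strand.
Hsp90b1: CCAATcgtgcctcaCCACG, chr10:86705533-86705551, plus strand.
Dnajc3: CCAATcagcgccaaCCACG, chr14:118937827-118937845, plus strand.
Calr: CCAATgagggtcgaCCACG, chr8:84847075-84847093, plus strand.
Canx: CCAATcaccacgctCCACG, chr11:50325800-50325818, minus strand.
Pdia6: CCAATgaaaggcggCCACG, chr12:17266491-17266509, plus strand.
Ero1lb: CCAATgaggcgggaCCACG, chr13:12565682-12565700, minus strand.
Creld2: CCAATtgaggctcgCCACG, chr15:88819520-88819538, minus strand.
Syvn1: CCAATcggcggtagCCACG, chr19:6046532-6046550, plus strand.
Dnajb11: ATTGGcCCACG, chr16:22857852-22857862, plus strand.
Herpud1: ATTGGgCCACG, chr8:94386377-94386387, plus strand.
An ERSE on either strand was found in 9 of the 33 member windows (27.3%) and in 39 of all 32851 windows of the same length (0.119%). ERSE-II was found in 2 of 33 members (6.06%) and in 12 of all windows (0.0365%). The core of the UPRE, a motif bound by XBP1, was in 0 member windows and in 0.676% of all windows, and the core bound by C/EBP and ATF proteins was in the window of Herpud1 and in 0.895% of all windows. The E-box read by ZEB1, CAGGTG or CAGGTA, was found in 7 of 33 members (21.2%), namely Atf4, Dnajb9, Eif2ak3, Hsp90b1, Spcs1, Syvn1 and Xbp1, and in 29.5% of all windows. A match to these letters is a description of the window and not a measured binding site.

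Among young WT tissues the members stood highest in the pituitary. Levels are given as counts per 1000000 of a library's counts, scaled between libraries (CPM), and divided by kilobases of annotated exons, so that genes can be compared. The median member was at 35.0 CPM per kb in pituitary, 17.4 in ovary and 11.4 in hypothalamus, and 35 of the 38 members had their highest mean in pituitary. Calr, the lectin chaperone calreticulin, led in pituitary at 313 ± 36.5 CPM per kb (SD, n = 3) and in ovary at 274 ± 26.3 (SD, n = 4), and its membrane-bound relative Canx led in hypothalamus at 123 ± 4.33 (SD, n = 4). Dnajb9, a BiP partner that is also a target of XBP1, was at 230 ± 62.4 CPM per kb in pituitary against 62.5 ± 5.22 in hypothalamus and 59.9 ± 7.30 in ovary. The stress effectors were at the other end: Ddit3, which encodes the pro-apoptotic factor CHOP, was at 2.40 ± 0.221 CPM per kb in pituitary, and Trib3, a target of ATF4 and CHOP, was at 0.585 ± 0.383.

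**Figure D1:**
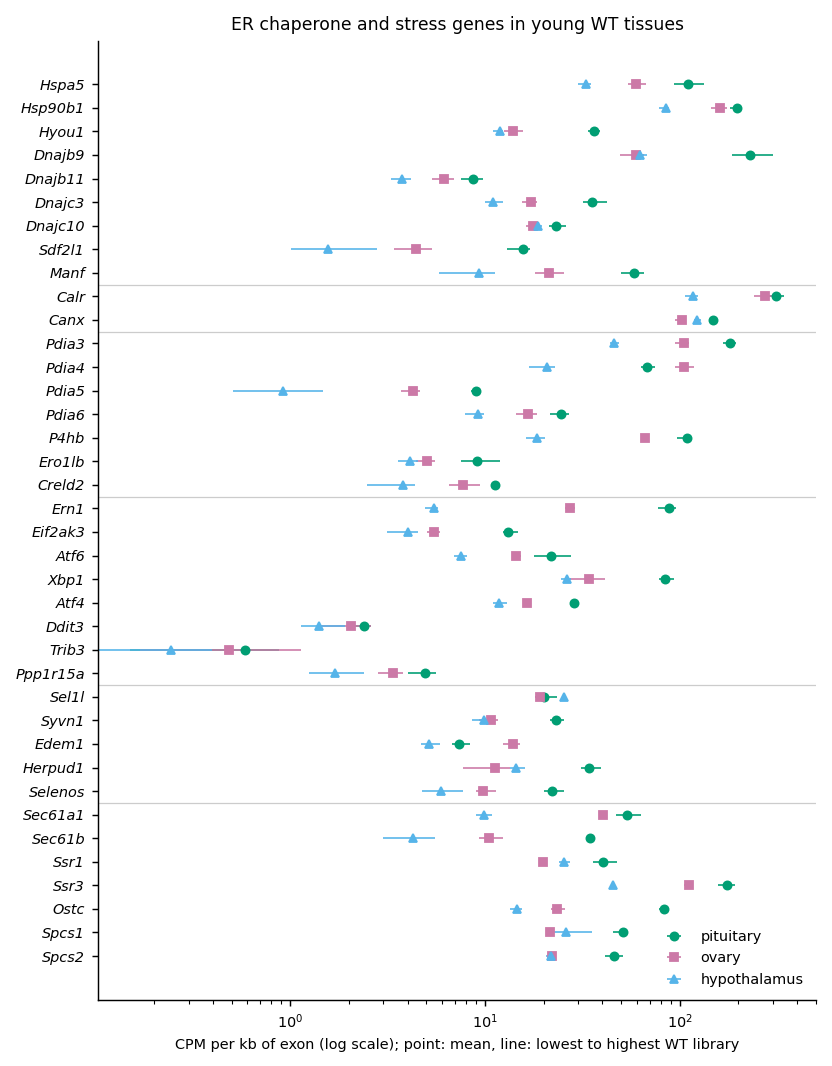
Level of each of the 38 members in young WT pituitary (n = 3), ovary (n = 4) and hypothalamus (n = 4), in CPM per kb of exon on a log axis. Points are means and bars run from the lowest to the highest library; the lowest hypothalamus library of Trib3 is at 0 and runs off the axis. Most members sit furthest right in pituitary, while Pdia4 and Edem1 are highest in ovary and Sel1l in hypothalamus.

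Pituitary was higher than hypothalamus for 36 of 37 members tested and lower for 1, with a median log2 difference of 1.59 (edgeR quasi-likelihood test, adjusted p under 0.05). Of all genes tested in that comparison 72.2% were called, with 36.8% called as higher in pituitary and 35.4% as lower. The widest difference was that of Ern1, the sensor IRE1. Its level was 757, 629 and 783 CPM in the WT pituitary libraries, 47.1, 43.6, 46.8 and 40.2 CPM in hypothalamus and 236, 214, 230 and 211 CPM in ovary. These values are scaled across the 3 tissues and so differ slightly from those within pituitary given later. The libraries of the 3 tissues did not overlap, and the log2 difference between pituitary and hypothalamus was 4.03 ± 0.08 (SE). Sdf2l1, a partner of BiP, and Pdia5, a disulfide isomerase, were also called, but they had 4 to 11 and 5 to 15 counts a library in WT hypothalamus and passed the filter through pituitary, so their differences of 3.33 ± 0.27 and 3.28 ± 0.22 are set by near-floor counts. Sel1l, which holds the ubiquitin ligase of ER-associated degradation in place, was the member that was lower in pituitary, by a log2 difference of -0.32 ± 0.08. The older WT mice gave 34 higher and 1 lower of 38 in the same comparison, with a median of 1.63 and Ern1 again widest at 4.45 ± 0.12, where 76.8% of all genes were called, 37.6% as higher in pituitary and 39.2% as lower.

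Ovary stood between the other tissues for most members. Pituitary exceeded ovary for 32 of 38 members, with a median log2 difference of 0.79, and was below it for Pdia4 (-0.66 ± 0.08), a disulfide isomerase with several active domains, and for Edem1 (-0.96 ± 0.10), which draws misfolded glycoproteins into degradation; 68.3% of all genes were called there, 32.7% as higher in pituitary and 35.6% as lower. Ovary exceeded hypothalamus for 27 of 37 members and was lower for 5, Canx, Sel1l, Herpud1, Ssr1 and Spcs1, with 76.7% of all genes called, 40.6% as higher in ovary and 36.1% as lower, and a median of 0.71. These are whole tissues, in which more cells of a type and more RNA per cell cannot be told apart.

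Zeb1 itself was checked before the genotypes were compared. In young pituitary it was at 98.5, 95.6 and 95.6 CPM in WT, 135, 129, 126 and 129 CPM in 200H and 132, 136, 141 and 140 CPM in 200M. In older pituitary it was at 55.3, 59.0, 62.7 and 57.5 CPM in WT, 73.1, 76.1, 75.3 and 70.1 CPM in 200H and 93.0, 83.5 and 80.6 CPM in 200M. Every knock-in pituitary library was above every WT library of its cohort, with log2 fold changes of 0.52 ± 0.06 (adjusted p = 2.39e-05) and 0.55 ± 0.09 (adjusted p = 0.000833) for 200M. In hypothalamus and ovary Zeb1 did not pass the test in either cohort. Tissue identity matched the labels: prolactin and growth hormone genes took 12.5 to 14.5% and 2.43 to 3.02% of young WT pituitary counts, the summed neuronal markers were at 1950 CPM or more in every hypothalamus library, and the summed oocyte markers were at 88.1 CPM or more in every ovary library.

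In young pituitary 200M mice had lower levels than WT of members from each of the 6 roles. Of 38 members tested, 21 fell and 1 rose, with a median log2 fold change of -0.28 where the median of all genes was 0. In this comparison 21.5% of all genes tested were called in either direction, 10% as lower and 11.5% as higher. By role, those that fell were 6 of 7 in protein entry and processing, 5 of 9 luminal chaperones, 4 of 7 disulfide enzymes, 3 of 8 sensors and effectors, 2 of 5 degradation genes and 1 of 2 lectins. The member that rose was Dnajc10, a reductase that opens disulfide bonds of proteins bound for degradation. Only 3 of the 38 estimates were positive.

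Most genes of protein entry and processing fell in young pituitary. Sec61a1, the pore subunit of the translocation channel, was at 425, 320 and 342 CPM in WT (replicates 1, 2 and u, the last being a library whose number could not be matched), 268, 286, 237 and 264 CPM in 200H and 253, 246, 240 and 264 CPM in 200M. Every knock-in library was below every WT library, and the log2 fold change in 200M was -0.52 ± 0.08 (adjusted p = 0.000373). Ostc, a subunit of the complex that attaches sugars, was at 228, 216 and 238 CPM in WT, 185, 193, 145 and 171 CPM in 200H and 175, 161, 176 and 168 CPM in 200M. It had the smallest adjusted p of all members, 0.000227, at a log2 fold change of -0.40 ± 0.06, and again the WT libraries did not overlap with the others. Spcs1, a subunit of the signal peptidase, was at 82.5, 70.6 and 83.2 CPM in WT, 62.5, 77.2, 58.5 and 54.1 CPM in 200H and 65.3, 53.9, 59.8 and 47.2 CPM in 200M, with a log2 fold change in 200M of -0.46 ± 0.10 (adjusted p = 0.00433). Here the 200M libraries lay below all WT libraries, while 200H replicate 2 lay among them. Sec61b (-0.32), Ssr3 (-0.24) and Spcs2 (-0.26) also fell, and Ssr1, like Ssr3 a part of the translocon-associated complex, was at -0.02 ± 0.08 and was not called.

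Among the luminal chaperones, BiP and several of its partners fell. Hspa5 was at 559, 396 and 436 CPM in WT, 399, 424, 323 and 381 CPM in 200H and 369, 343, 376 and 339 CPM in 200M. Its 200M libraries were all below WT and its 200H libraries overlapped with WT, and the log2 fold change in 200M was -0.36 ± 0.09 (adjusted p = 0.0108). Dnajb11, a cochaperone of BiP, was at 31.5, 24.6 and 28.5 CPM in WT, 22.1, 23.3, 17.9 and 18.4 CPM in 200H and 20, 16.1, 17.2 and 20 CPM in 200M, all knock-in libraries being below WT (-0.62 ± 0.12, adjusted p = 0.00143). Manf, a secreted ER protein that binds BiP, was at 231, 176 and 207 CPM in WT, 170, 177, 127 and 156 CPM in 200H and 159, 147, 151 and 152 CPM in 200M, and only its 200M libraries cleared the WT range (-0.41 ± 0.08, adjusted p = 0.00165). Hyou1, an Hsp70 relative, and Sdf2l1 fell by 0.25 and 0.61 on the log2 scale. Hsp90b1 was at 823, 734 and 819 CPM in WT, 762, 778, 599 and 709 CPM in 200H and 726, 699, 720 and 677 CPM in 200M. Although all its 200M libraries were below the lowest WT library, its log2 fold change of -0.15 ± 0.06 was not called (adjusted p = 0.0637), and neither were those of Dnajb9 (-0.17 ± 0.12) and Dnajc3 (-0.24 ± 0.09). Dnajc10, which rose, was at 129, 113 and 106 CPM in WT, 139, 128, 143 and 127 CPM in 200H and 147, 136, 137 and 137 CPM in 200M (0.28 ± 0.07, adjusted p = 0.0122).

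Of the lectins and disulfide enzymes, Calr fell by 0.29 on the log2 scale and Canx, at 0.01 ± 0.06, was not called. P4hb, the main protein disulfide isomerase, was at 325, 280 and 333 CPM in WT, 264, 287, 259 and 240 CPM in 200H and 259, 235, 254 and 236 CPM in 200M. The 200M libraries lay below WT and the 200H libraries reached into the WT range (-0.33 ± 0.07 in 200M, adjusted p = 0.00278). Creld2, an ER protein induced by stress, was at 15.1, 15.1 and 16.0 CPM in WT, 11.1, 12.6, 9.38 and 10.9 CPM in 200H and 9.60, 11.6, 9.08 and 9.28 CPM in 200M, with no overlap between WT and either genotype (-0.62 ± 0.13, adjusted p = 0.00319). Pdia3 (-0.18) and Pdia4 (-0.23) also fell, whereas Pdia5, Pdia6 and Ero1lb, the oxidase that recharges these enzymes, were not called.

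Among sensors and effectors, Ern1, Xbp1 and Atf4 fell. Ern1 was at 751, 632 and 786 CPM in WT, 571, 646, 472 and 558 CPM in 200H and 554, 546, 575 and 519 CPM in 200M, so that the 200M libraries were below every WT library and 1 of the 200H libraries was not (-0.38 ± 0.07, adjusted p = 0.001). Xbp1, the substrate of IRE1, was at 300, 265 and 256 CPM in WT, 247, 256, 202 and 230 CPM in 200H and 221, 205, 233 and 226 CPM in 200M (-0.29 ± 0.07, adjusted p = 0.00594). Atf4 was at 69.3, 64.7 and 69.8 CPM in WT, 55.4, 55.1, 52.1 and 42.7 CPM in 200H and 55.5, 50.4, 48.4 and 46.2 CPM in 200M, with every knock-in library below WT (-0.42 ± 0.08, adjusted p = 0.00138). Ddit3, Trib3 and Ppp1r15a, which ATF4 is known to raise, did not pass the test. Ddit3 was at 3.68, 4.48 and 4.18 CPM in WT, 4.99, 5.09, 6.59 and 4.01 CPM in 200H and 4.38, 3.63, 5.05 and 4.07 CPM in 200M, the groups overlapping (0.08 ± 0.21), and it rested on 32 to 69 counts a library. Trib3, on 3 to 26 counts, was at -0.77 ± 0.51, and Ppp1r15a, which reverses the translational block of PERK, at -0.30 ± 0.14. The sensors Eif2ak3 (-0.15 ± 0.09) and Atf6 (-0.31 ± 0.11, adjusted p = 0.0585) were not called either. Of the degradation genes, Herpud1, an ER membrane protein of the degradation complex, was at 91.8, 74.2 and 72.7 CPM in WT, 68.5, 74.9, 71.5 and 69.3 CPM in 200H and 59.4, 65.8, 61.3 and 55.6 CPM in 200M, the last all below WT (-0.38 ± 0.09, adjusted p = 0.00765). Selenos fell by 0.31, and Sel1l, Syvn1 and Edem1 were not called.

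**Figure D2:**
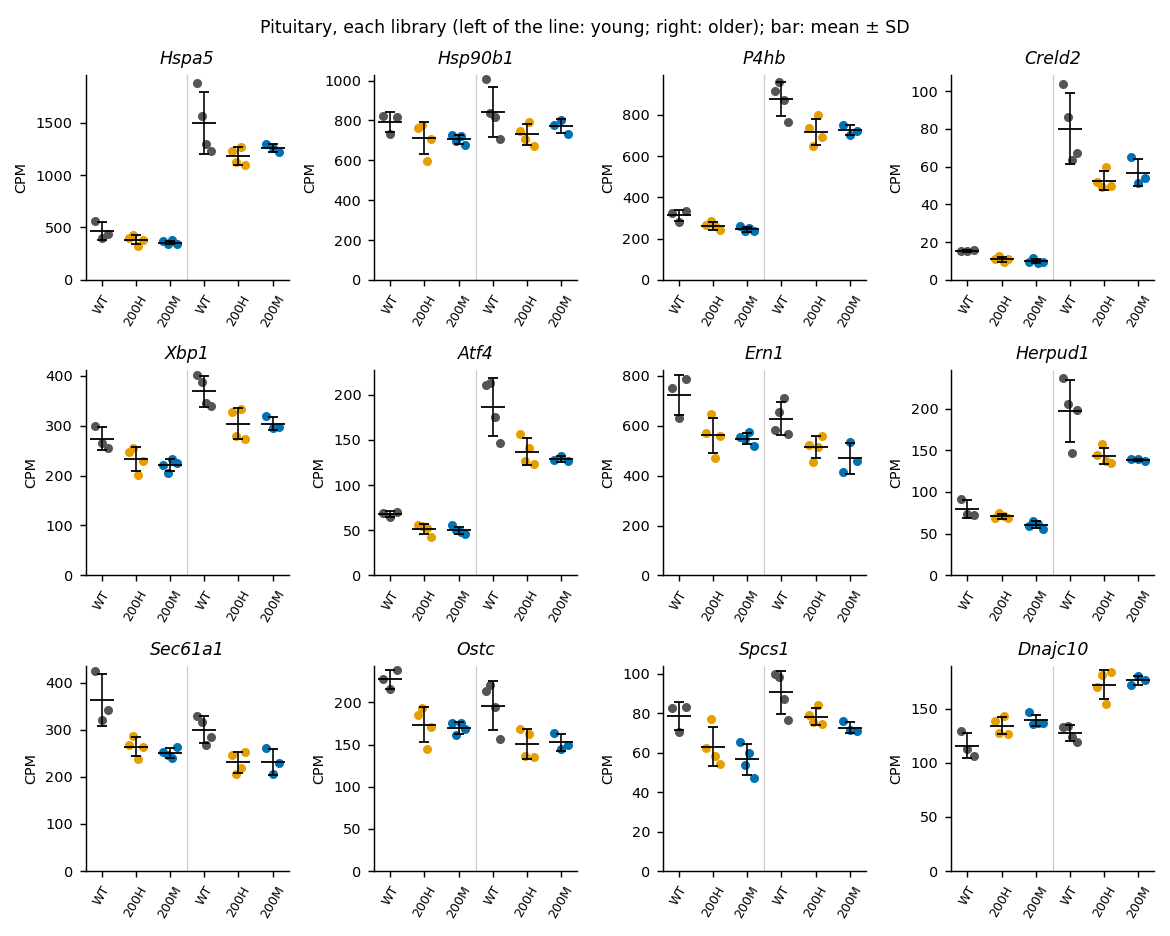
CPM of selected members in every pituitary library of both cohorts, by genotype, with 1 point per library, the group mean as a dash and the SD as a bar. In young pituitary the 200M points of Sec61a1, Ostc and Atf4 lie below all WT points, and Dnajc10 lies above them in both cohorts.

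In young 200H pituitary, with 1 mutant allele, 6 of 38 members fell, against a background of 12.3% of genes called in either direction, 5.72% as lower and 6.56% as higher. The 6 were Sec61a1 (-0.45, adjusted p = 0.00822), Ostc (-0.38, 0.0166), Atf4 (-0.39, 0.018), Dnajb11 (-0.45, 0.0328), Ern1 (-0.35, 0.0347) and Creld2 (-0.47, 0.0366), and the median over all members was -0.18. A direct test of 200M against 200H called 0 of 37 members by edgeR and 0 by DESeq2, where edgeR called 0.0383% of all genes. In it 2 members had an unadjusted p under 0.05, against 5.92% of all genes. No difference between 1 and 2 knock-in alleles was thus detectable here. Both comparisons with WT share the WT libraries.

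Single libraries moved these counts. The share of all genes called in each fit with a library left out is not given here, so the moves are not read as particular to the members. WT replicate 1 was the highest of its group for 26 of the 38 members. Without it, 13 members were called in 200M, 12 of them lower, with a median of -0.19, and 1 in 200H. Without WT replicate u 18 were called in 200M and 1 in 200H. Of the 22 calls in 200M, those of Atf4, Dnajb11, Ern1, Manf, Ostc, P4hb, Sec61a1, Spcs1 and Xbp1 held without each library in turn and under all 6 other settings. The 200H count was also 10 with its replicate 2 left out and 3 with its replicate 4 left out.

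In older pituitary 11 of 38 members fell in 200M and 1 rose, with a median of -0.24; 21.4% of all genes were called, 9.77% as lower and 11.7% as higher. By role, the falls were in 4 of 8 sensors and effectors, 3 of 7 disulfide enzymes, 3 of 7 genes of protein entry and processing and 1 of 5 degradation genes. The filtered edgeR fit called 0 of the 9 luminal chaperones and 0 of the 2 lectins as lower, with 3 of the luminal genes, Dnajc10 included, and 0 lectins at an unadjusted p under 0.05, and this count depended on the setting. Without the low-count filter edgeR called Hspa5 (-0.27, adjusted p = 0.0264), Dnajb11 (-0.39, adjusted p = 0.00469), Sdf2l1 (-0.38, adjusted p = 0.0101) and Manf (-0.42, adjusted p = 0.000605) as lower. With the replicate block the same 4 and Calr (-0.27, adjusted p = 0.0243) were lower, and DESeq2 called Manf. The share of all genes called under these settings is not given here, so the added calls are not read as particular to the members. It is also not known that the replicate numbers used for the block pair the mice. Whether the cohorts differed in these counts was not tested, and 20 of the 38 members had an unadjusted p under 0.05, against 34.6% of all genes.

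Dnajc10 had the smallest adjusted p of the older 200M members. It was at 133, 134, 124 and 119 CPM in WT, 170, 181, 154 and 184 CPM in 200H and 172, 180 and 177 CPM in 200M. Every knock-in library was above every WT library, and the log2 fold change in 200M was 0.47 ± 0.08 (adjusted p = 0.0014). Atf4 was at 211, 213, 175 and 146 CPM in WT, 156, 127, 141 and 123 CPM in 200H and 128, 132 and 126 CPM in 200M, the 200M libraries lying below WT and those of 200H partly among them (-0.53 ± 0.12, adjusted p = 0.00957). Ppp1r15a was at 45.9, 59.7, 59.8 and 49.6 CPM in WT, 60.3, 37.0, 54.5 and 56.2 CPM in 200H and 43.5, 37.7 and 38.7 CPM in 200M (-0.43 ± 0.11, adjusted p = 0.0194). Only the 200M libraries of Ppp1r15a cleared the WT range. Ern1 was at 585, 655, 710 and 566 CPM in WT, 525, 454, 517 and 559 CPM in 200H and 413, 534 and 460 CPM in 200M, with all knock-in libraries below WT (-0.42 ± 0.11, adjusted p = 0.0146).

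Xbp1 was at 401, 388, 345 and 339 CPM in older WT, 327, 280, 333 and 274 CPM in 200H and 319, 295 and 298 CPM in 200M, again with no overlap (-0.28 ± 0.09, adjusted p = 0.0428). Ddit3 was at 32.0, 31.3, 19.0 and 27.3 CPM in WT, 39.3, 31.8, 25.2 and 25.8 CPM in 200H and 24.6, 29.7 and 22.2 CPM in 200M, the 3 genotypes overlapping (-0.11, not called). Pdia5 was at 48.1, 50.7, 45.3 and 46.5 CPM in WT, 39.3, 35.7, 39.4 and 37.4 CPM in 200H and 39.1, 34.9 and 37.7 CPM in 200M (-0.36 ± 0.09, adjusted p = 0.0146). Both knock-in genotypes of Pdia5 lay below every WT library. Herpud1 was at 237, 205, 147 and 198 CPM in WT, 144, 157, 137 and 135 CPM in 200H and 139, 139 and 137 CPM in 200M (-0.51 ± 0.13, adjusted p = 0.0169), and its 200M libraries lay below WT. Sec61a1 was at 330, 317, 267 and 285 CPM in WT, 246, 205, 219 and 253 CPM in 200H and 261, 206 and 229 CPM in 200M, all knock-in libraries being lower (-0.37 ± 0.11, adjusted p = 0.0259).

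The remaining calls in older 200M pituitary had adjusted p-values just inside the threshold. Ostc was at 213, 221, 195 and 156 CPM in WT, 169, 136, 162 and 135 CPM in 200H and 164, 145 and 149 CPM in 200M (-0.37 ± 0.12, adjusted p = 0.0425). Creld2 was at 104, 86.2, 63.3 and 67.2 CPM in WT, 51.6, 49.4, 59.8 and 49.5 CPM in 200H and 65.0, 51.5 and 54.1 CPM in 200M (-0.50 ± 0.16, adjusted p = 0.045). In both genes the 200M libraries reached into the WT range. Spcs1 was at 100, 98.3, 87.1 and 76.7 CPM in WT, 78.9, 75.3, 84.0 and 74.3 CPM in 200H and 75.8, 71.2 and 70.8 CPM in 200M (-0.32 ± 0.10, adjusted p = 0.0454), and 16.3% of its exon bases overlap Glt8d1 on the other strand, which these unstranded libraries cannot separate. P4hb was at 915, 957, 870 and 766 CPM in WT, 735, 648, 797 and 691 CPM in 200H and 751, 702 and 723 CPM in 200M (-0.27 ± 0.09, adjusted p = 0.0475). The 200M libraries of Spcs1 and P4hb lay below WT.

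Hspa5 and Hsp90b1 were not called by the filtered fit in older pituitary. Hspa5 was at 1880, 1560, 1300 and 1230 CPM in WT, 1230, 1120, 1270 and 1100 CPM in 200H and 1300, 1260 and 1220 CPM in 200M, the 200M libraries sitting at the low end of a wide WT range (-0.25 ± 0.13, adjusted p = 0.204). Hsp90b1 was at 1010, 838, 819 and 707 CPM in WT, 749, 706, 790 and 674 CPM in 200H and 778, 804 and 733 CPM in 200M, with overlap (-0.13, adjusted p = 0.449). Manf (-0.40, adjusted p = 0.0663), Dnajb11 (-0.37, adjusted p = 0.104) and Trib3 (-0.83 ± 0.32, adjusted p = 0.0848) did not pass either.

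In older 200H pituitary Dnajc10 rose and 5 members fell, where 12.2% of all genes were called, 5.14% as lower and 7.09% as higher. Dnajc10 was at 0.44 ± 0.08 (adjusted p = 0.0051), Creld2 at -0.61 ± 0.14 (adjusted p = 0.0147), Pdia5 at -0.33 ± 0.08 (adjusted p = 0.0191), Sec61a1 at -0.38 ± 0.10 (adjusted p = 0.0265), Herpud1 at -0.46 ± 0.12 (adjusted p = 0.0319) and Atf4 at -0.45 ± 0.12 (adjusted p = 0.0351). Between 200M and 200H, 0 of 38 members were called by edgeR and 0 by DESeq2, where edgeR called 0.121% of all genes. An unadjusted p under 0.05 was found for 1 member, against 10.6% of all genes. Without 200H replicate 2, 1 member was called, and without the low-count filter Ppp1r15a was.

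Single libraries moved the older counts as well. Here too the share of all genes called in each fit is not given, so the moves are not read as particular to the members. WT replicate 1 was the highest of its group for 29 of 38 members and WT replicate 4 the lowest for 22. The 12 calls in 200M became 7 without WT replicate 1, 5 without WT replicate 2, 20 without WT replicate 4, and 5, 3 and 2 without 200M replicates 1, 2 and 3. The 6 calls in 200H became 3 without WT replicate 1, 2 without WT replicate 2, 11 without WT replicate 4, 3 without 200H replicate 2 and 2 without 200H replicate 4. For 200M in older mice, Atf4 and Dnajc10 were called in each of these fits.

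Across the cohorts, which share no mice, 9 members fell in 200M pituitary of both: Atf4, Creld2, Ern1, Herpud1, Ostc, P4hb, Sec61a1, Spcs1 and Xbp1. These are 9 of the 21 that fell in the young and 9 of the 11 that fell in the older mice, and Dnajc10 rose in both. Of all genes tested, 10% were lower in the young and 9.77% in the older comparison. The share lower in both was not counted, so the overlap is not read as particular to the members. Pdia5 and Ppp1r15a passed the test in older mice but not in young, and 12 members, Hspa5 and Dnajb11 among them, passed it in young but not in older mice. These differences between cohorts were not tested.

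**Figure D3:**
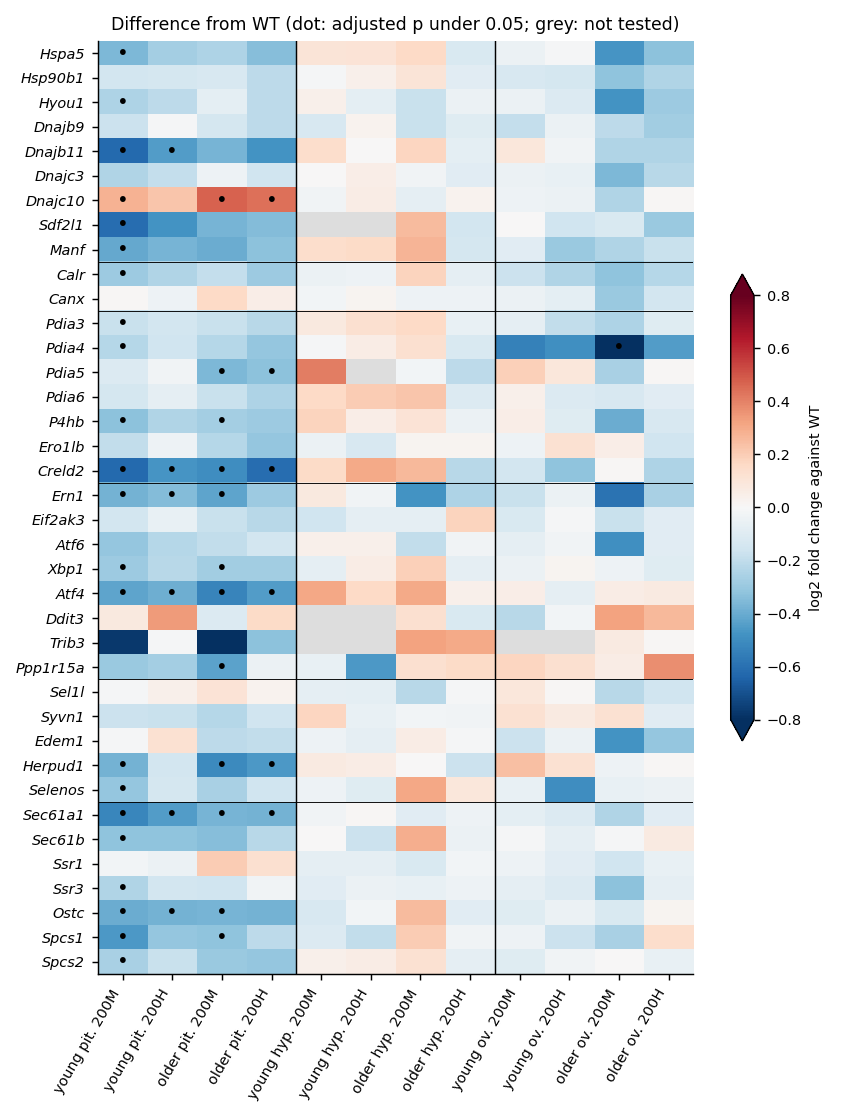
Log2 fold change of the 38 members (rows, grouped by role) in 200M and 200H against WT in each tissue and cohort (columns). Dots mark calls and grey marks genes not tested; the colour scale ends at 0.8 in either direction, and Pdia4 in older 200M ovary (-1.63) and Trib3 in older 200M pituitary (-0.83) lie beyond it. Dots gather in the 4 pituitary columns, with 1 more for Pdia4 in ovary.

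Calls were also counted by promoter element, without a test. In young 200M pituitary 5 of 11 members with an ERSE or ERSE-II fell, with a median of -0.24, and 12 of 22 members without either fell and 1 rose, with a median of -0.25. In older pituitary these were 2 of 11 (median -0.23) and 7 of 22 with 1 higher (median -0.26). With a ZEB1 E-box 3 of 7 members fell in the young (median -0.17) and 3 of 7 in the older mice (median -0.23). Without one 14 of 26 fell and 1 rose in the young (median -0.25), and 6 of 26 fell and 1 rose in the older mice (median -0.24).

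Other measures moved with genotype in the same pituitary libraries. Prl, the prolactin gene, was at 134000 to 158000 CPM in young WT, 28600 to 61700 CPM in 200H and 39100 to 61300 CPM in 200M (log2 fold change in 200M -1.61 ± 0.12), and in older mice at 168000 to 211000, 58700 to 119000 and 52900 to 72400 CPM (-1.66 ± 0.13). Prl made up 12.5 to 14.5% of counts in young WT and 4.06 to 6.17% in 200M. With Prl, Gh and Pomc left out before scaling, an alternative chosen after the data were seen, 24 members were called in young 200M. The share of all genes called in that fit is not given here. The same alternative was also fitted for young 200H, older 200M and older 200H, and those counts are not given here either. The summed level of 4 neuronal markers was 772 to 837 CPM in young WT and 924 to 998 CPM in 200M, with 3 of 4 higher, and 525 to 576 and 752 to 820 CPM in older mice, with 4 of 4 higher. Plasma cells are another ER-rich cell type, and 5 of their 6 markers summed to 8.72 to 11.9 CPM in young WT and 12.6 to 16.7 CPM in 200M, with Igkc higher, while the sixth, Derl3, itself on the list of other ER genes and left out of the sum, was lower. In older mice the sum was 22.8 to 50.8 CPM in WT and 40.1 to 62.8 CPM in 200M. The corticotrope and melanotrope markers, Pomc among them, summed to 8910 to 12100 CPM in older WT and 11600 to 24800 CPM in 200M, with 2 of 3 higher, and overlapped in young mice, with 1 of 3 higher. Oligodendrocyte markers summed to 70.1 to 79.3 CPM in young WT and 43.1 to 46.5 CPM in 200M, and to 62.0 to 87.7 and 45.2 to 55.5 CPM in older mice, with Mbp lower in both. Macrophage markers summed to 17.2 to 23.1 CPM in young WT and 25.4 to 30.4 CPM in 200M, with 1 of 3 higher, and to 37.1 to 48.6 and 53.0 to 72.5 CPM in older mice, with 2 of 3 higher. In each cohort 1 of 3 gonadotrope markers was lower in 200M. The part of these shifts in the members' levels was not tested.

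Other ER genes, 87 on a separate list, were called in both directions in pituitary, more of them as lower than as higher. In young 200M 25 of 83 tested fell and 7 rose, with a median of -0.14, where 10% of all genes were lower and 11.5% higher. Those with the smallest p were Ssr2 (-0.68), Tram1 (-0.48) and Creb3l1 (-1.52) among the lower and Tmx4 (0.72), Mbtps2 (0.49) and Vldlr (0.51) among the higher. In older 200M 18 of 83 fell, led by Sil1 (-0.58), Mogs (-0.61) and Srpr (-0.49), and 6 rose, led by Tmx4 (0.79), Sdf2 (0.35) and Fam8a1 (0.50). Of all genes tested there, 9.77% were lower and 11.7% higher. In 200H the counts were 12 lower and 7 higher of 82 in young mice and 11 lower and 6 higher of 83 in older mice. The shares of all genes were 5.72% lower and 6.56% higher in young 200H, and 5.14% and 7.09% in older 200H.

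In hypothalamus the filtered edgeR fits called 0 members in each genotype comparison. Of all genes, 0.02% were called in young 200M against WT, 0.0202% in young 200H against WT and 0.00622% in older 200M against WT, and 0% in the other hypothalamus comparisons. In young mice 35, 34 and 35 members were tested in 200M against WT, 200H against WT and 200M against 200H, since Sdf2l1, Ddit3 and Trib3 had too few counts, as had Pdia5 in the second. An unadjusted p under 0.05 was found for 1, 0 and 1 of them, against 5.65%, 3.93% and 4.6% of all genes, and DESeq2 called 0. Hspa5 was at 119, 140, 135 and 131 CPM in WT, 144, 167, 111 and 140 CPM in 200H and 148, 119, 150 and 147 CPM in 200M (0.10 ± 0.08 in 200M). Atf4 was at 28.7, 24.6, 24.5 and 27.0 CPM in WT, 31.7, 33.9, 32.8 and 17.9 CPM in 200H and 25.2, 34.3, 32.8 and 36.6 CPM in 200M (0.31 ± 0.14, adjusted p = 0.871). The genotypes overlapped for both genes. Hsp90b1 was at 297, 329, 335 and 329 CPM in WT, 324, 337, 320 and 343 CPM in 200H and 343, 315, 339 and 290 CPM in 200M. Xbp1 was at 83.2, 84.7, 81.4 and 74.9 CPM in WT, 96.7, 76.7, 68.7 and 93.6 CPM in 200H and 73.9, 78.1, 74.1 and 81.1 CPM in 200M. Both overlapped as well, and Ddit3, at 2 to 23 counts a library and 1.84, 2.11, 3.06 and 2.13 CPM in WT, 2.42, 4.02, 1.52 and 0.578 CPM in 200H and 2.49, 1.76, 2.03 and 4.28 CPM in 200M, was too low to test.

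In older hypothalamus all 38 members were tested, with 8, 2 and 19 at an unadjusted p under 0.05 in 200M against WT, 200H against WT and 200M against 200H, and medians of 0.12, -0.06 and 0.18. Of all genes 18.1%, 2.8% and 19.5% had such a p. DESeq2 called Ern1 as lower in 200M than WT, where it called 2% of all genes with a p, and 8 members as higher in 200M than 200H (Hspa5, Manf, Calr, Pdia3, Pdia6, Creld2, Xbp1 and Ostc), where it called 2.15%. Without the low-count filter edgeR called Ern1 against WT (3.48% of all genes) and Manf, Pdia6, Creld2 and Ostc against 200H (4.26% of all genes). Hspa5 was at 679, 505, 477 and 546 CPM in WT, 501, 521, 481 and 536 CPM in 200H and 579, 645 and 630 CPM in 200M. Its 200M libraries lay above all 200H libraries and within the WT range (0.28 ± 0.07 against 200H, adjusted p = 0.142). Atf4 was at 126, 106, 110 and 99.1 CPM in WT, 117, 126, 107 and 105 CPM in 200H and 129, 146 and 134 CPM in 200M, the last above the others (0.30 ± 0.09 against WT, adjusted p = 0.151). Ern1 was at 27.6, 28.9, 33.9 and 35.0 CPM in WT, 26.8, 23.7, 28.7 and 26.7 CPM in 200H and 26.0, 22.1 and 19.9 CPM in 200M, where 200M lay below WT (-0.48 ± 0.13, adjusted p = 0.119). Xbp1 was at 139, 106, 107 and 113 CPM in WT, 107, 117, 110 and 111 CPM in 200H and 129, 133 and 137 CPM in 200M, above 200H but within WT. Hsp90b1 was at 525, 467, 402 and 460 CPM in WT, 451, 449, 411 and 443 CPM in 200H and 508, 474 and 517 CPM in 200M. Ddit3 was at 31.5, 26.1, 26.2 and 26.4 CPM in WT, 24.5, 28.6, 24.0 and 24.8 CPM in 200H and 27.3, 30.7 and 32.3 CPM in 200M, overlapping with WT.

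The 200M effect was compared between tissues by an interaction term. In young mice 7 of 37 members had a lower fold change in pituitary than in hypothalamus, where 10.5% of all genes were called, 3.88% as lower and 6.64% as higher: Atf4 (difference of log2 fold changes -0.73 ± 0.15), P4hb (-0.51 ± 0.13), Sec61a1 (-0.48 ± 0.13), Dnajb11 (-0.75 ± 0.21), Hspa5 (-0.46 ± 0.13), Manf (-0.55 ± 0.18) and Sdf2l1 (-1.49 ± 0.45). Sdf2l1 had 4 to 23 counts a library in hypothalamus, too few to be tested there alone, and entered the joint fit through its pituitary counts, so its value is given without being read as a difference between the tissues. The count was 3 without pituitary WT replicate 1, 4 without hypothalamus WT replicate 1 and 11 without pituitary WT replicate 2. Against ovary 4 of 38 were lower in pituitary, with 10.1% of all genes called, 4.45% as lower and 5.68% as higher: Sec61a1 (-0.43 ± 0.11), Atf4 (-0.46 ± 0.12), P4hb (-0.38 ± 0.10) and Dnajb11 (-0.70 ± 0.19). This count was 1 without pituitary WT replicate 1 or u and 7 without ovary WT replicate 2.

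In older mice 10 of 38 members had a lower and 1 a higher fold change in pituitary than in hypothalamus, where 17.5% of all genes were called, 7.08% as lower and 10.4% as higher. Atf4 was again the firmest (-0.83 ± 0.16, adjusted p = 0.002), followed by Ostc (-0.62 ± 0.16, adjusted p = 0.011), and Dnajc10 was higher (0.53 ± 0.14, adjusted p = 0.0114). This count was 3 without pituitary 200M replicate 2, 4 without 200M replicate 3, 6 without WT replicate 2 and 18 without WT replicate 4, 6 and 5 without hypothalamus 200M replicates 2 and 3, and 7 without hypothalamus WT replicate 3 or 4. Against ovary, Dnajc10 (0.73 ± 0.13) and Pdia4 (1.43 ± 0.17) were higher in pituitary, with 5.77% of all genes called, 3.29% as higher and 2.48% as lower. The older pituitary and ovary were counted by different programs, so that comparison sets side by side fold changes made within each table.

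**Figure D4:**
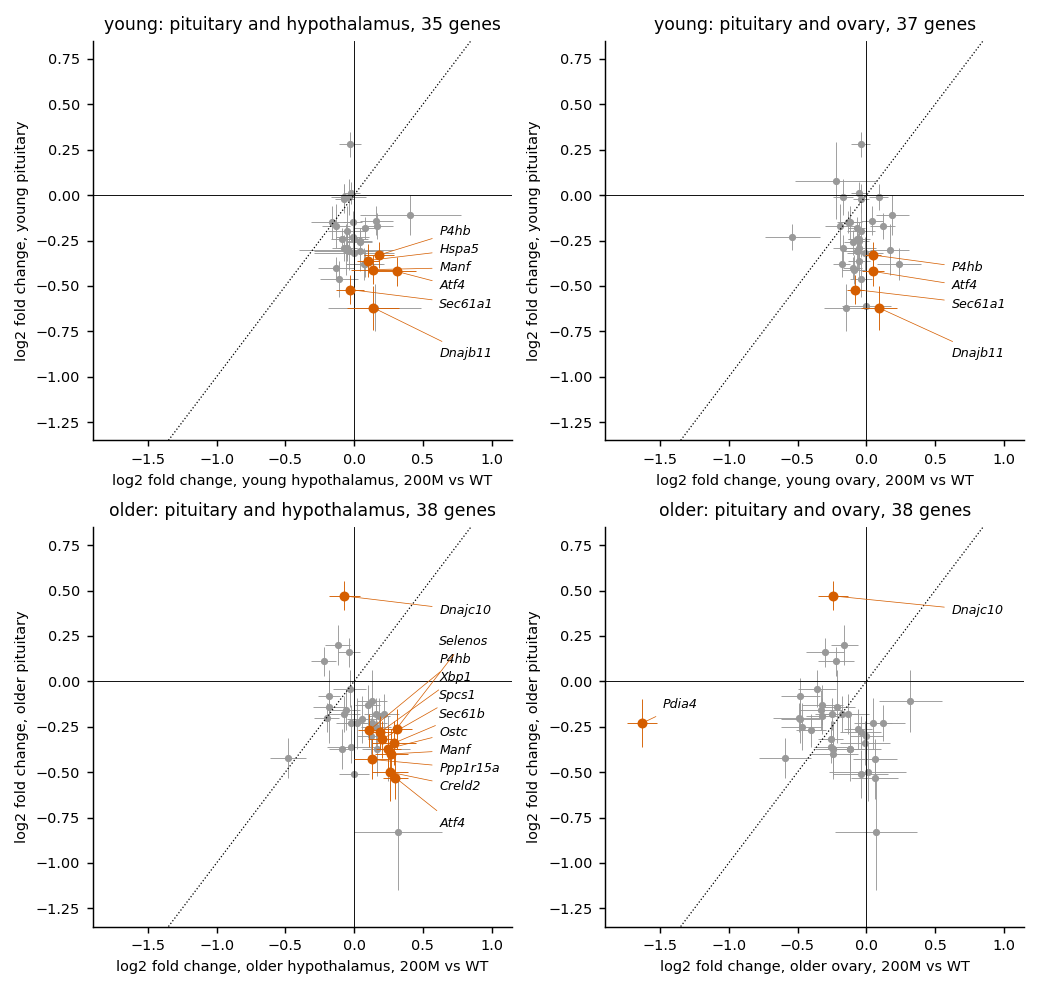
Log2 fold change of 200M against WT in pituitary (vertical) and in hypothalamus or ovary (horizontal), 1 point per member with SE bars, for 35, 37, 38 and 38 members in the 4 panels. The dotted line marks equal change; orange points, whose difference between tissues was called, lie mostly below it, and Pdia4 lies far to the left in older ovary. Sdf2l1 is not drawn in the young hypothalamus panel.

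In ovary the member that stood out was Pdia4, the disulfide isomerase with its highest WT level in that tissue. In older mice it was at 782, 738, 875 and 829 CPM in WT, 1060, 401, 462 and 416 CPM in 200H and 247, 272, 272 and 247 CPM in 200M. All 200M libraries lay below all others, and 200H had 1 library above WT and 3 between WT and 200M. In 200M this gave a log2 fold change of -1.63 ± 0.11 with an adjusted p of 0.000514. In 200H the change of -0.45 ± 0.30 was not called (adjusted p = 0.779). Pdia4 was the only 1 of 38 members called in older 200M ovary by edgeR, where 2.71% of all genes were called, 1.19% as lower and 1.52% as higher; 11 members had an unadjusted p under 0.05, against 16.5% of all genes, and DESeq2 called 5 (Hspa5, Hyou1, Pdia4, P4hb and Edem1) and 3.66% of all genes with a p. It was called without each library in turn, with log2 fold changes from -1.68 to -1.60 over all alternatives.

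In young ovary the filtered edgeR fit and DESeq2 called 0 members in 200M against WT, 200H against WT and 200M against 200H. Of all genes edgeR called 2.58%, 0.0051% and 0%. An unadjusted p under 0.05 was found for 4, 4 and 2 members, against 16.2%, 7.05% and 3.36% of all genes. Pdia4 was at 289, 328, 253 and 281 CPM in WT, 167, 224, 150 and 275 CPM in 200H and 159, 322, 156 and 150 CPM in 200M. In 200M 3 libraries lay below WT and replicate 2 among them (-0.54 ± 0.20, adjusted p = 0.185), and without 200M replicate 2 the count of members called was 1. Without the low-count filter edgeR called Pdia4 as lower in young 200M, by a log2 fold change of -0.55 (adjusted p = 6.47e-06). The same setting called it in young 200H, at -0.54 (adjusted p = 0.00621). The share of all genes called under that setting is not given here. With all libraries kept, the 4 other settings of the fit called 0 members in either comparison. In older ovary edgeR called 0 members in 200H against WT and in 200M against 200H, with 0% and 1.61% of all genes called. In each, 5 members had an unadjusted p under 0.05, against 6.59% and 13% of all genes. DESeq2 called 0 members in 200H against WT and Pdia4 in 200M against 200H.

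Markers of the corpus luteum also differed between the ovary libraries. Sfrp4 was at 361, 253, 333 and 346 CPM in young WT, 15.7, 178, 30.9 and 189 CPM in 200H and 7.03, 234, 7.32 and 10.6 CPM in 200M. Replicate 2, the young 200M library with Pdia4 among WT, was also the 200M library with the highest Sfrp4, just below the WT range. In older ovary Sfrp4 was at 1900, 4090, 3090 and 2340 CPM in WT, 4780, 4660, 1660 and 1580 CPM in 200H and 30.7, 26.9, 16.7 and 37.1 CPM in 200M. Older 200H replicates 1 and 2 had similar Sfrp4 but Pdia4 at 1060 and 401 CPM. Ptgfr, the receptor for the prostaglandin that ends the corpus luteum, was at 291, 1660, 865 and 571 CPM in older WT, 820, 1320, 670 and 478 CPM in 200H and 4.70, 3.53, 5.20 and 6.73 CPM in 200M. Of the 5 luteal markers 3 were lower in older 200M and 1 in young 200M, and their sums were 7650 to 23600 CPM in older WT, 9670 to 16700 CPM in 200H and 1660 to 5900 CPM in 200M. Macrophage markers summed to 85.9 to 167 CPM in older WT, 98.9 to 134 CPM in 200H and 174 to 463 CPM in 200M, without overlap, and 0 of 3 were called by the filtered edgeR fit. The plasma cell marker Sdc1 (-2.26) and the oligodendrocyte marker Mbp (-2.16) were lower in older 200M ovary. Each is a single marker of its set, and the rest of the set is not given here, so no cell type is read from them. The part of these markers in the level of Pdia4 was not tested.

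**Figure D5:**
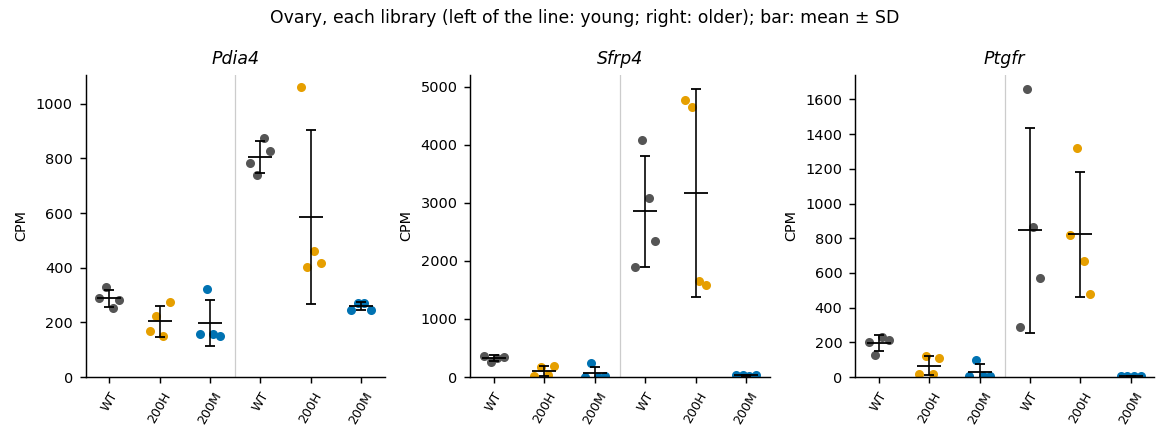
Pdia4 in every ovary library by cohort and genotype, in CPM, beside the luteal markers Sfrp4 and Ptgfr; points are libraries, dashes are means and bars are SDs. The older 200M libraries lie at 247 to 272 CPM, below all WT and 200H libraries, and the young 200M replicate 2 lies at 322 CPM among WT.

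The other ovary members overlapped or differed less. Hspa5 was at 265, 330, 291 and 262 CPM in young WT, 342, 287, 236 and 273 CPM in 200H and 275, 263, 285 and 287 CPM in 200M, and in older mice at 1580, 1240, 1490 and 1040 CPM in WT, 963, 1260, 1050 and 949 CPM in 200H and 981, 1020, 964 and 896 CPM in 200M. The young groups overlapped, whereas the older 200M libraries lay below all WT libraries without passing the test (-0.47 ± 0.15, adjusted p = 0.164). Hsp90b1 was at 668, 812, 730 and 765 CPM in young WT, 729, 726, 590 and 655 CPM in 200H and 706, 691, 668 and 658 CPM in 200M, and at 1660, 1370, 1260 and 1070 CPM in older WT, 1070, 1160, 1290 and 991 CPM in 200H and 1110, 1010, 1010 and 1150 CPM in 200M. Atf4 was at 43.5, 47.1, 41.3 and 46.1 CPM in young WT, 46.4, 43.9, 38.1 and 40.6 CPM in 200H and 40.5, 50.3, 44.7 and 48.2 CPM in 200M, and at 151, 153, 159 and 150 CPM in older WT, 159, 182, 160 and 138 CPM in 200H and 132, 224, 152 and 129 CPM in 200M. Both overlapped between genotypes in each cohort. Xbp1 was at 113, 154, 140 and 101 CPM in young WT, 143, 127, 111 and 133 CPM in 200H and 132, 133, 111 and 117 CPM in 200M, and at 217, 161, 224 and 176 CPM in older WT, 166, 197, 158 and 200 CPM in 200H and 187, 196, 221 and 154 CPM in 200M. Ddit3 was at 4.26, 4.08, 2.72 and 5.07 CPM in young WT, 2.72, 4.58, 4.31 and 4.23 CPM in 200H and 3.93, 5.08, 1.94 and 2.55 CPM in 200M, and at 35.1, 21.8, 31.7 and 24.5 CPM in older WT, 27.8, 55.7, 28.4 and 22.9 CPM in 200H and 29.7, 51.3, 31.6 and 28.7 CPM in 200M. The genotypes overlapped for these genes too, with the highest older Ddit3 values in replicate 2 of 200H and of 200M.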

How the data were processed

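RNA was measured in 69 libraries of 18 groups, grouped by the labels' tissue, genotype and age. Per the labels and the study's methods, the authors aligned reads to mm10 (GRCm38) with STAR 2.7.1a and counted them per gene, by strand with featureCounts in the young cohort, and without strand with HTSeq 0.9.1 (older pituitary and hypothalamus) or featureCounts (older ovary). The deposited values used are raw counts. The authors' normalized counts, fold changes and p-values, also in these tables, were not used, nor were 3 count columns of young pituitary WT that could not be tied to a library. Depth is given with the samples, and low-count genes such as Trib3 are the least precise.

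Replicates are separate mice. CPM used TMM scaling. Each pair of groups was fitted with edgeR 4.0.16 (quasi-likelihood F test, two-sided, filterByExpr, Benjamini-Hochberg adjustment over all genes tested) and called at an adjusted p under 0.05. Each SE was derived from the log2 fold change and its F statistic, as their absolute ratio after taking the root of F. Levels between genes used CPM per kb. Alternatives were RLE scaling, no filter, DESeq2 1.42.0, a replicate block, all 3 genotypes in one fit, leaving out each library, and, chosen after the data were seen, leaving out Prl, Gh and Pomc before scaling. The scripts were tested on simulated data, and Python 3.11.15 and R 4.3.3 were used. Promoter windows came from RefSeq.

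The members and lists were chosen with earlier results of these data known. Values in every library are given for Hspa5, Hsp90b1, Xbp1, Atf4, Ddit3 and Zeb1, for up to 8 members with the smallest p in each direction among those called in 200M against WT, for up to 4 in the other genotype comparisons, and for those called with the same sign in both cohorts. Of the other ER genes, up to 3 with the smallest p in each direction are named. Sfrp4 and Ptgfr were singled out after their values were seen.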

Additional observations from a re-analysis of the deposited data

Results flagged for a closer look

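Of 133 groups of 4 libraries tested for a library far from the other 3, 9 had one, and chance alone gives about 1 in 20 groups. In hypothalamus these were Atf4 in young 200H replicate 4 (17.9 CPM, others 31.7 to 33.9), Hsp90b1 in young WT replicate 1 (297 CPM, others 329 to 335), Hspa5 in young 200M replicate 2 (119 CPM, others 147 to 150), Ddit3 in older WT replicate 1 (31.5 CPM, others 26.1 to 26.4) and Zeb1 in older 200H replicate 2 (125 CPM, others 134 to 135). In older ovary they were Ddit3 in 200H replicate 2 (55.7 CPM, others 22.9 to 28.4), Ddit3 in 200M replicate 2 (51.3 CPM, others 28.7 to 31.6) and Pdia4 in 200H replicate 1 (1060 CPM, others 401 to 462). In young pituitary it was Dnajc10 in 200M replicate 1 (147 CPM, others 136 to 137).

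The 200M effect differed between tissues by the edgeR interaction test for 24 pairs of a gene and a comparison, given as the log2 fold change in pituitary less that in the other tissue. In young mice against hypothalamus the differences were Hspa5 -0.46 (adjusted p = 0.0203), Dnajb11 -0.75 (0.0201), Manf -0.55 (0.0499), P4hb -0.51 (0.00832), Atf4 -0.73 (0.00174) and Sec61a1 -0.48 (0.0153). Sdf2l1 was also called (-1.49, adjusted p = 0.0329), but with 4 to 23 counts a library in hypothalamus it passed the filter through pituitary and is not read as a difference. In young mice against ovary they were Dnajb11 -0.70 (0.0189), P4hb -0.38 (0.0162), Atf4 -0.46 (0.0156) and Sec61a1 -0.43 (0.0125). In older mice against hypothalamus they were Dnajc10 0.53 (0.0114), Manf -0.67 (0.0323), P4hb -0.39 (0.0344), Creld2 -0.76 (0.0258), Xbp1 -0.47 (0.0229), Atf4 -0.83 (0.002), Ppp1r15a -0.55 (0.0392), Selenos -0.57 (0.0167), Sec61b -0.62 (0.0449), Ostc -0.62 (0.011) and Spcs1 -0.52 (0.0191). In older mice against ovary they were Dnajc10 0.73 (0.00678) and Pdia4 1.43 (0.000541). These calls held unevenly when 1 library was left out in turn. Against hypothalamus Manf was called in 4 of 15 young and 5 of 14 older fits. In older mice Sec61b was called in 3, P4hb in 5 and Ppp1r15a in 6 of 14 such fits. Atf4 was called in 15 of 15 young and 14 of 14 older fits, and not every pair is listed.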

How the results depend on the processing

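Of 71 results for single members, 0 turned sign in 1038 alternatives and 21 were called in every one. Of 26 counts of members called, 12 stayed within 1.5 times throughout, and 296 of 349 alternatives did so. Without a low-count filter the counts were 10 in young pituitary 200H, 19 in older pituitary 200M and 16 in older pituitary 200H. They were 1 (Pdia4) in young ovary 200M and 200H and 1 in older pituitary 200M against 200H. In older hypothalamus 200M they were 1 against WT and 4 against 200H. For the difference in the 200M effect between tissues they were 2 for young pituitary and ovary and 17 for older pituitary and hypothalamus. DESeq2 gave 12 in older pituitary 200H, and 1 and 8 in older hypothalamus 200M against WT and against 200H. It gave 5 and 1 in older ovary 200M against WT and against 200H. For the 200M effect in young pituitary against ovary it gave 7. The fit of all 3 genotypes gave 11 in older pituitary 200H, 2 in older ovary 200M and 1 in older ovary 200M against 200H. Replicate numbers were not used to pair mice in the main fits, since no comparison had every same-number correlation over 0.1. Young pituitary against WT had only 2 shared numbers in each comparison. Weak correlations cannot show that same-numbered libraries come from different mice, and the fits across tissues treated all libraries as independent. The replicate block gave 17 in young pituitary 200M, 1 in young pituitary 200H and 24 in older pituitary 200M. Leaving out 1 library gave 13 to 25 in young pituitary 200M and 1 to 10 in young pituitary 200H. In older pituitary it gave 2 to 20 in 200M and 2 to 11 in 200H. It gave 0 to 1 in older pituitary 200M against 200H and in young ovary 200M. For the 200M effect in young pituitary it gave 3 to 11 against hypothalamus and 1 to 7 against ovary. For the 200M effect in older pituitary it gave 3 to 18 against hypothalamus and 2 to 3 against ovary. Shares of all genes called in the fits with 1 library left out are not given here. The cause of these moves was not tested. Groups of 3 or 4 mice limit the size of difference that can be called, and counts of Ddit3 and Trib3 limit it further.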
